A study of Rattus norvegicus with 14 samples.

Results

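Rat aortic smooth muscle cells that received JQ1 before platelet-derived growth factor (PDGF) are compared here with cells that received PDGF without JQ1, both 2 h after PDGF. The contrast takes 6 of the 14 libraries of the series, 3 in each group, and was chosen by the treatment and time in the column names. All 17312 gene rows entered, 92 spike-in rows were left out, and 10133 genes were tested. The cells came from a commercial supplier (Lonza), were grown in culture and were kept without serum for 24 h. In both groups PDGF was then given at 925 ng/ml, per the labels. The JQ1 group was treated with JQ1 at 500 nM for 3 h before PDGF. The labels mention no vehicle for the cells without JQ1, and cells given JQ1 without PDGF were not analysed here. An effect of JQ1 on its own therefore cannot be told apart from its effect on the PDGF response. An unstimulated group (0 h, 2 libraries) gives the level before PDGF, and 3 libraries each of PDGF and of JQ1 plus PDGF at 24 h enter the same fit and are described last. Sample titles carry the letters B to D for PDGF and E, G and H for JQ1 plus PDGF, so JQ1 and whatever these letters mark cannot be told apart. The labels do not call the replicates separate cultures, so the spread behind each p-value is that between these libraries and may be technical.

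BET proteins, among them Brd2 and Brd3, bind acetylated histones at enhancers and promoters through bromodomains, and JQ1 occupies the pocket that holds the acetyl-lysine. The family helps to bring P-TEFb, a kinase made of Cdk9 and a T-type cyclin, to paused RNA polymerase II, and Hexim1 together with the 7SK RNA holds P-TEFb inactive. In smooth muscle, PDGF acts through receptor tyrosine kinases and the ERK pathway, first on immediate early genes, then on genes of inflammation, matrix and growth, and over longer times it is known to lower contractile genes.

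Levels are the authors' normalised FPKM, that is, fragment counts per length of transcript and per library total with a further adjustment by the authors. The sources used here do not describe that adjustment. Synthetic spike-ins had been added in proportion to RNA from a fixed number of cells, and over the 6 libraries the median SD of 31 spike-ins (1 FPKM or more in all 6) was 0.39 in log2 before the adjustment and 0.27 after it. The normalised values are therefore called the spike-in scale. An unnormalised value of 0 appears there as a small positive number. Differences are log2 of the value plus 1, JQ1 plus PDGF minus PDGF, with the SE of a limma fit over all 5 groups. A gene is said to have risen or fallen where its Benjamini-Hochberg adjusted p in limma was under 0.05. Between 9901 and 11384 genes were above 0 in a PDGF library and between 10300 and 11034 in a JQ1 plus PDGF library. Spearman correlations across the tested genes, which are not independent replicates, were 0.945 to 0.982 within the PDGF group, 0.964 to 0.976 within the JQ1 group and 0.896 to 0.946 between the groups. The spike-in share of all unnormalised FPKM was 2.38 ± 0.081% (SD, n = 3) with JQ1 and 2.08 ± 0.24% (SD, n = 3) without. The exact two-sided permutation test gave p = 0.10, the smallest that 3 against 3 can give. On the normalised scale, genes of 1 to 5 FPKM were shifted relative to the unnormalised values, most strongly in 2 of the 6 libraries. PDGF replicate 1 was raised by 0.58 and JQ1 replicate 0 lowered (-0.54, log2), with JQ1 replicate 2 at -0.37. Without PDGF replicate 1 and JQ1 replicate 0, 702 genes were higher and 2549 lower. The cells carried the markers of their label: 7 of 8 smooth muscle markers were at 1 FPKM or more in all 6 libraries. Their summed unnormalised FPKM was 11896 to 12603 with PDGF and 17821 to 18203 with JQ1. On the spike-in scale, by contrast, Acta2 (0.055) and Cnn1 (-0.38) did not pass, Tagln rose (0.48) and Myh11 fell (-0.69). The sums that follow are unnormalised too. Of 10 endothelial markers, 5 (Pecam1, Cdh5, Tie1, Cldn5 and Emcn) were listed at 0 in all 6 libraries. The summed endothelial level was 43.2 to 55.2 with PDGF and 21.4 to 22.8 with JQ1, 1 of the 10 markers reaching 1 FPKM in all 6. The summed leukocyte level was 22.2 to 30.6 and 10.5 to 17.8, with Ptprc, Cd3e and Tyrobp at 0 and again 1 of 10 markers at 1 FPKM or more throughout. For 8 fibroblast markers in the table the sums were 108 to 121 and 94.4 to 113, with Dpt and Cd34 at 0, and for 6 Schwann cell markers they were at most 2.23. Among tested markers of other cells Eng (-1.44), Cd14 (-1.93) and the fibroblast markers Pdgfra (-1.63) and Lum (-0.45, not called when centred) fell. The part of these markers in the results below was not tested.

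With JQ1, far more transcripts were lower than higher on the spike-in scale, and the median tested gene stood at -0.29. In limma 734 of 10133 genes rose (7.24%) and 3449 fell (34%). On a second scale, on which unnormalised values were divided by median-ratio size factors, the median was 0.00, and 2003 of 9980 genes were higher (20.1%) and 2143 lower (21.5%). The spike-ins were added for a fixed number of cells, and whether cell number or RNA per cell differed was not tested. The choice of scale sets which genes near the median count as changed. No gene was called in opposite directions on the 2 scales. A core of 676 higher genes (6.67% of those tested) and 1992 lower genes (19.7%) was called the same way on both scales with no overlap between the 3 and 3 libraries on either. Changes of 4-fold or more on the log2(value + 1) scale were shown by 21 risen and 100 fallen genes on the spike-in scale, against 47 and 59 when centred. Each group of genes below is described by its counts on the spike-in and centred scales and its median on the spike-in scale, to be read against these shares.

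**Figure D1:**
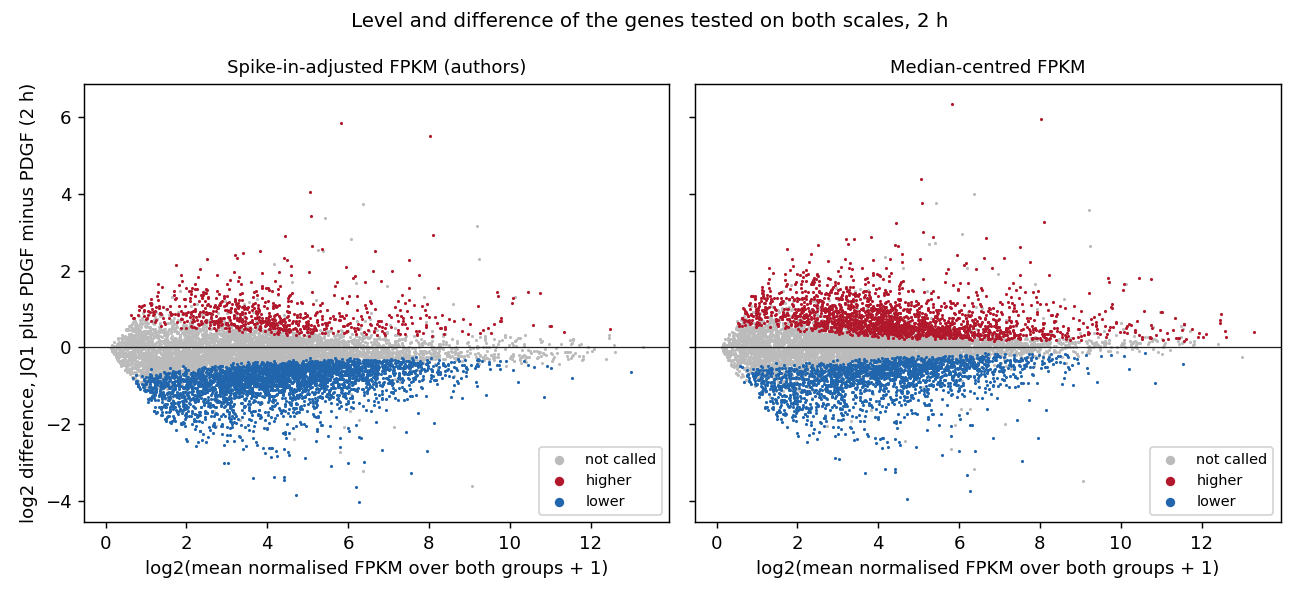
Each point is 1 gene tested on both scales, with the log2 of its mean normalised FPKM plus 1 on the x axis and its log2 difference (JQ1 plus PDGF minus PDGF, 2 h) on the y axis, on the authors' spike-in-adjusted scale (left) and the median-centred scale (right). Red points rose, blue points fell and grey points were not called. The cloud lies below 0 on the left, with its median at -0.29, and around 0 on the right.

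**Figure D2:**
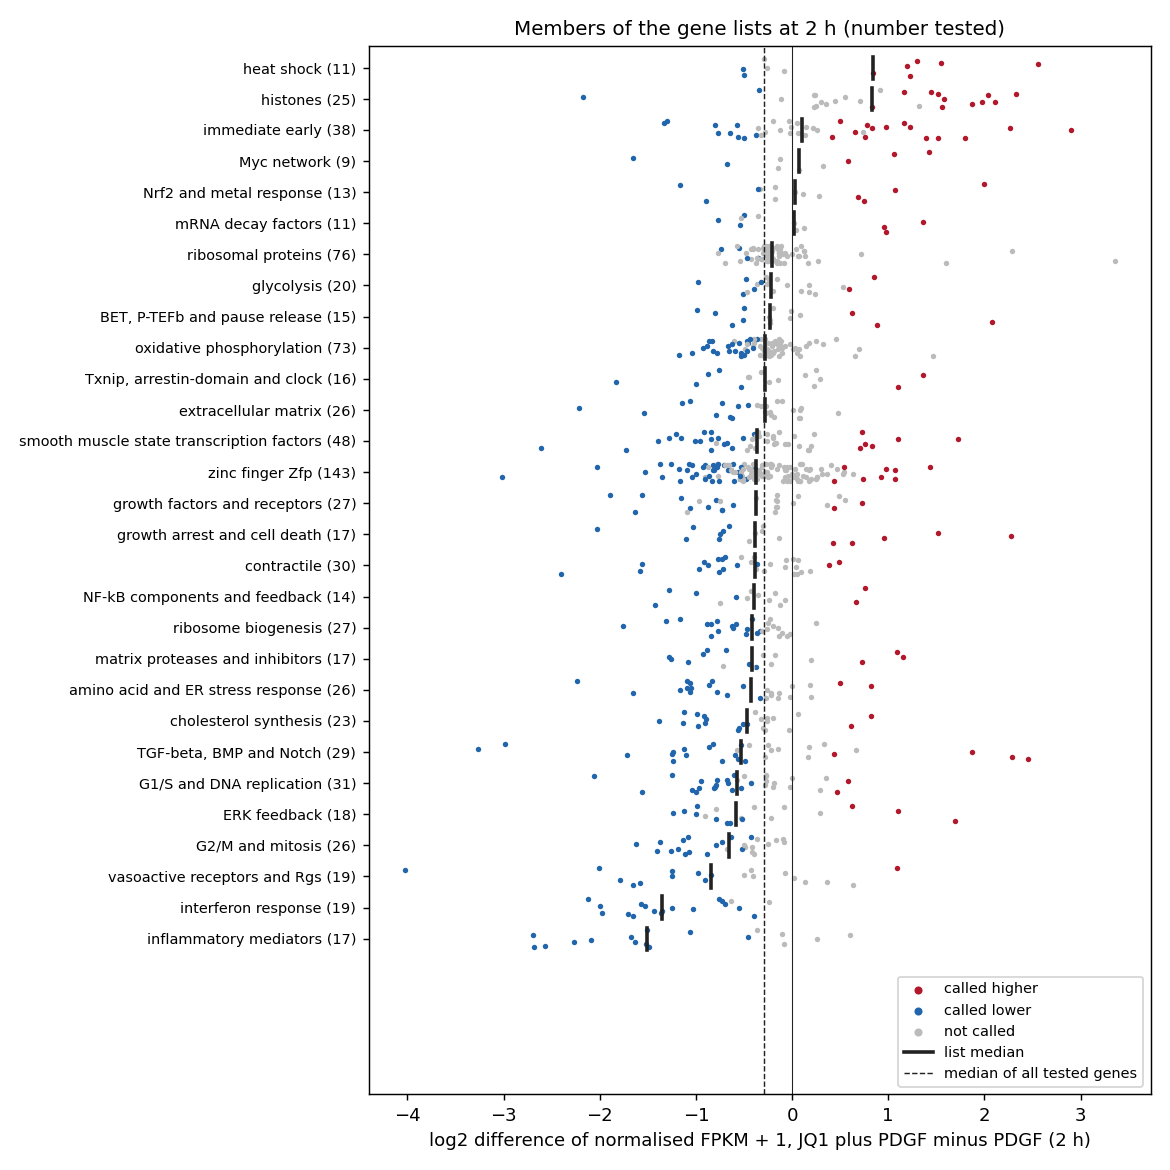
Log2 differences at 2 h (x axis, spike-in scale) of the tested members of the gene lists with at least 9 tested members (rows, number tested in brackets), red for risen, blue for fallen and grey for not called, with a thick bar at each list's median. The dashed line marks the median of all tested genes at -0.29. The inflammatory and interferon lists have the lowest medians, and the heat shock and histone lists the highest.

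Among genes for BET proteins and their partners, Hexim1 rose and Cdk9 did not pass. Of 15 tested genes for BET proteins, P-TEFb and factors of pause release, 3 rose and 5 fell (5 and 2 when centred), with a median of -0.23. Hexim1, the inhibitor of P-TEFb and a gene often used to monitor BET inhibitors, was at 39.8 and 36.6 normalised FPKM before PDGF, 18.3, 27.2 and 22.7 with PDGF and 92.8, 99.4 and 103 with JQ1 plus PDGF. Every JQ1 library was above every library without it, including both at 0 h, and the difference was 2.08 ± 0.13 (limma, adjusted p = 3.51e-08). Cdk9, the kinase of P-TEFb, was at 72.04, 68.6 and 82.2 with PDGF and 61.5, 64.7 and 67.6 with JQ1. The groups were close together though without overlap (-0.19 ± 0.12, limma adjusted p = 0.223). When centred the sign was the opposite (0.14, limma adjusted p = 0.198), again without overlap. Brd3 went from 11.5, 11.02 and 15.2 to 18.95, 20.3 and 19.8 (0.62 ± 0.17, adjusted p = 0.00759 in limma). Brd2 was listed at 1.02, 1.41 and 1.41 with PDGF and 2.27, 4.97 and 2.75 with JQ1 (0.88 ± 0.24), and its call was lost when only the 6 libraries were fitted. In RefSeq's GRCr8 table a gene named Brd2l lies within 2 kb of Brd2, and the split of reads between such neighbours in the deposited values is unknown. The fallen members were Larp7, which protects the 7SK RNA (-0.99 ± 0.14), the NELF pausing subunits Nelfcd (-0.80 ± 0.17), Nelfa and Nelfe, and the Mediator subunit Med1. Only Larp7 and Nelfcd also passed when centred, and Nelfcd no longer did so when PDGF replicate 1 and JQ1 replicate 0 were both left out on that scale. Serpini1, another transcript that BET inhibitors are known to raise, was at 0.898, 5.28 and 0.215 with PDGF and 3.12, 3.97 and 2.55 with JQ1, ranges that overlap through PDGF replicate 1 (adjusted p = 0.15 in limma, 0.0289 when centred).

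Myc, a growth regulator known to depend on BET proteins in many tumour cells, did not pass on the spike-in scale. Its normalised FPKM was 50.04 and 63.8 before PDGF, 86.6, 105 and 111 with PDGF and 96.2, 110.2 and 110.4 with JQ1 plus PDGF. The PDGF and JQ1 ranges overlapped (0.071 ± 0.14, limma adjusted p = 0.711), and relative to the median gene Myc was higher (0.41, adjusted p = 0.00133). Partner and antagonist genes of the Myc network differed from one another. Of 9 tested, 3 rose and 2 fell, with a median of 0.071, against 4 and 1 when centred (median 0.41). The risen genes encode repressors that compete with Myc for its partner Max: Mxd1 went from 5.44, 5.29 and 3.33 to 13.4, 11.7 and 17.4 (1.42 ± 0.22), Mxi1 rose by 1.06 ± 0.23 and Mnt by 0.58 ± 0.19. Max itself fell by 0.67 on the spike-in scale and did not pass when centred (-0.35, limma adjusted p = 0.143) or, on the spike-in scale, without PDGF replicate 1. Mycl, a Myc relative, fell by 1.66 from 2.79, 15.7 and 7.67 to 2.31, 1.21 and 1.41, the highest value being that of PDGF replicate 1. When centred it was also called (-1.45, limma adjusted p = 0.0114), but the groups overlapped.

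Immediate early genes, which growth factors induce without new protein synthesis, divided. Of 38 tested, 14 rose and 9 fell, and their median was 0.098 against -0.29 for all genes. When centred, 23 rose and 5 fell, with a median of 0.43. Klf2, a Krüppel-like factor known for its anti-inflammatory role in vessels, was at 7.03 and 7.01 before PDGF, 3.46, 4.85 and 3.94 with PDGF and 30.4, 45.5 and 35.7 with JQ1 plus PDGF. All JQ1 libraries were above all others, a 9.10-fold difference in mean level and 2.90 ± 0.16 in log2 (limma, adjusted p = 1.28e-08). In the GRCr8 table the span of Klf2 overlaps that of Eps15l1, and the strand setting of the counting was not stated. The difference of Eps15l1 itself did not pass on the spike-in scale (0.049, limma adjusted p = 0.809) and was 0.36 when centred. Arc, known from neurons as an activity-induced gene, went from 52.6, 66.8 and 66.3 to 256, 346 and 306. Its groups did not overlap (2.27 ± 0.22). The AP-1 gene Fos was at 1.76 and 0.558 before PDGF, 6.97, 11.4 and 8.95 with PDGF and 28.5, 28.2 and 25.7 with JQ1, the JQ1 libraries lying above every PDGF library (1.51 ± 0.22, adjusted p = 8.91e-05, limma). Jun went from 31.2, 33.1 and 40.1 to 55.2, 68.3 and 64.1 (0.83 ± 0.13) and Jund from 94.97, 99.5 and 119 to 212, 227 and 266 (1.16 ± 0.12), again without overlap. The growth arrest genes Gadd45a (1.80 ± 0.17) and Gadd45b (1.22 ± 0.14), Egr4 (1.39 ± 0.28), the polo-like kinase gene Plk2 (0.78 ± 0.14) and Klf4, which can repress contractile genes (0.76 ± 0.15), were also among the risen.

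Other genes of the same early class were lower. Nr4a3, an orphan nuclear receptor, was at 142, 167 and 179 with PDGF and 52.99, 73.6 and 66.4 with JQ1, and Fosl2, an AP-1 subunit, at 74.7, 112 and 104 and 34.5, 35.2 and 45.3. Neither overlapped, and the differences were -1.33 ± 0.19 and -1.30 ± 0.16. Egr2 fell by 0.80, Zfp36l1 by 0.77 and Klf6 by 0.57, and all 3 passed when centred. Fosl1 (-0.65), Junb (-0.37), Phlda1 and Btg2 fell on the spike-in scale only. Fosl1 was no longer called when any 1 of 4 libraries was left out: PDGF replicates 1 and 2 and JQ1 replicates 0 and 1. Nr4a1, at 187, 211 and 211 with PDGF and 202, 278 and 235 with JQ1, did not pass on the spike-in scale (limma adjusted p = 0.346) and was higher when centred (0.55). Egr1 was at 337, 367 and 465 and 459, 567 and 527. The lowest JQ1 value lay just below the highest PDGF value (0.42 ± 0.15, limma adjusted p = 0.0313). Its call on that scale was lost without PDGF replicate 0, PDGF replicate 1, JQ1 replicate 1 or JQ1 replicate 2, while the centred difference was 0.76 (adjusted p = 1.72e-05).

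**Figure D3:**
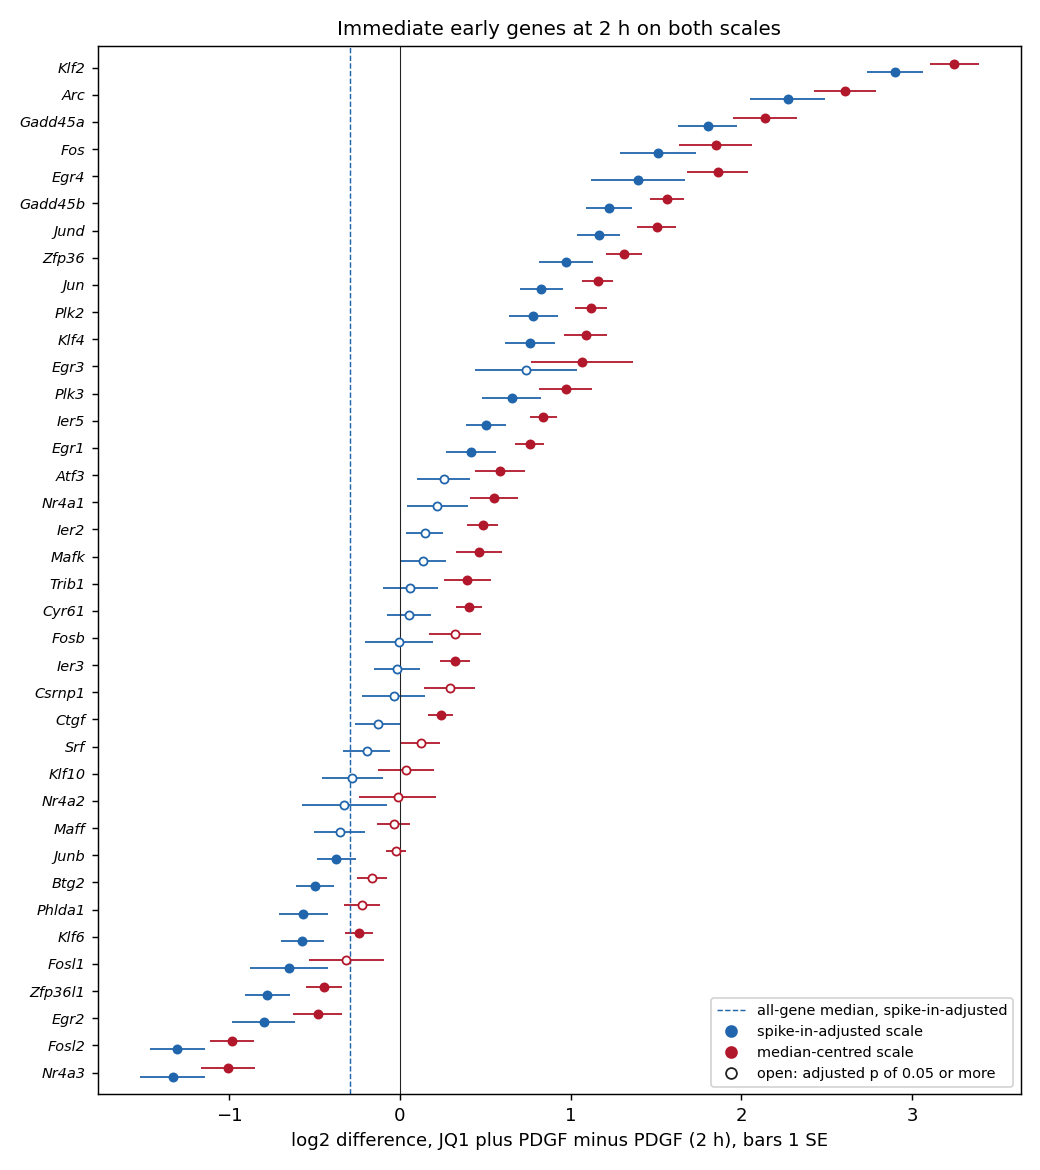
Log2 differences at 2 h (x axis, bars 1 SE) of the 38 immediate early genes (rows, sorted), in blue on the spike-in-adjusted scale and in red on the median-centred scale, with open symbols where the adjusted p was 0.05 or more. Klf2 is highest at 2.90 and Nr4a3 lowest at -1.33 on the spike-in scale, and the centred values lie to the right of the spike-in values for every gene.

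Negative feedback genes of the ERK pathway were mostly lower or not called. Of 18 tested, 3 rose and 8 fell (4 and 7 when centred), with a median of -0.59. The fallen included the Sprouty and Spred genes Spry4 (16.5, 21.6 and 21.5 with PDGF, 8.23, 8.63 and 8.60 with JQ1), Spred3 (-1.23 ± 0.21), Spred2 and Spry2, and the dual-specificity phosphatase genes Dusp10, Dusp7 and Dusp1. Spry4 values did not overlap (-1.13 ± 0.20). Dusp5, a nuclear ERK phosphatase, was higher, at 121, 154 and 171 and 188, 262 and 239.7 (0.63 ± 0.22, limma adjusted p = 0.0294), but was not called without PDGF replicate 0, JQ1 replicate 1 or JQ1 replicate 2. Dusp14 stood at 53.5, 14.5 and 64.9 with PDGF, where replicate 1 was far below the others, and at 103, 139 and 129 with JQ1, and its call was lost without PDGF replicate 1 or any single JQ1 library. Among 11 genes of mRNA decay, 3 rose and 3 fell (4 and 1 when centred, median 0.018). Zfp36, which encodes tristetraprolin, a protein that speeds the decay of cytokine mRNAs, went from 95.99, 93.998 and 126 to 177, 232 and 212 (0.97 ± 0.16), and the antiproliferative genes Tob1 (1.37 ± 0.12) and Btg1 (0.96 ± 0.11) also rose.

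Most measured cytokine and chemokine transcripts were lower with JQ1. Of 17 tested inflammatory mediators, 12 fell and 0 rose, with a median of -1.51 against -0.29 for all genes. When centred, 11 fell and 2, Icam1 and Csf1, rose. Ccl2, a chemokine that attracts monocytes, was at 1.94 and 2.19 before PDGF, 205, 192 and 195 with PDGF and 39.9, 21.3 and 31.3 with JQ1 plus PDGF. The JQ1 libraries were all below the PDGF libraries and all above 0 h, a 6.39-fold lower mean than with PDGF (-2.68 ± 0.18, limma adjusted p = 6.28e-08). The related chemokine gene Ccl7 was at 2.59 and 3.73, 412, 455 and 404 and 82.6, 50.3 and 65.1 in the same order (-2.69 ± 0.18, adjusted p = 4.74e-08, limma). Lif, a cytokine of the interleukin-6 family, went from 79.8, 114 and 113 to 17.6, 28.4 and 24.3 (-2.09 ± 0.30), and Ptgs2, the inducible cyclooxygenase, from 107, 146 and 136 to 33.5, 49.1 and 40.7 (-1.64 ± 0.20). Neither overlapped. Il6 was low throughout, with unnormalised FPKM of 6.41, 7.65 and 4.12 with PDGF and 0, 0 and 0.878 with JQ1, of which 2 are listed at 0. Its normalised values were 2.53 and 1.34 before PDGF and 0.064, 0.113 and 0.736 with JQ1, so that here the JQ1 libraries lay below 0 h as well (-2.57 ± 0.32, adjusted p = 2.1e-05 in limma). Cxcl10 was at 40.1, 30.9 and 32.96 and 14.3, 11.03 and 9.61, and Cxcl1 at 7.53, 11.7 and 18.2 and 0.0674, 5.49 and 1.66, with no overlap in either. Of the 12 fallen genes, 8 kept a mean with JQ1 plus PDGF above the mean at 0 h. Icam1, an adhesion molecule gene, was at 96.8, 109 and 139 and 92.5, 119.6 and 112, overlapping values that did not pass on the spike-in scale (limma adjusted p = 0.684).

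Genes of the NF-kB system, which drives many of these cytokines, differed by member. Of 14 tested, 2 rose and 4 fell, with a median of -0.39, and the same numbers held for the 13 tested when centred. Nfkb1, the p105 precursor of p50, went from 64.4, 82.7 and 93.9 to 25.6, 33.1 and 28.8 (-1.42 ± 0.16), Nfkb2 from 29.01, 34.1 and 41.8 to 15.3, 14.6 and 21.4 (-0.997 ± 0.17), and Nfkbiz, a nuclear cofactor, from 9.96, 17.1 and 11.1 to 4.55, 4.75 and 4.27 (-1.28 ± 0.19). The inhibitor genes Nfkbia (7.49, 10.3 and 11.9 to 16.9, 15.98 and 18.6, 0.75 ± 0.17) and Nfkbie (0.67 ± 0.20) went the other way. Groups did not overlap in any of these 5 genes. Rela, which encodes p65, did not pass (-0.24 ± 0.16, limma adjusted p = 0.249).

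**Figure D4:**
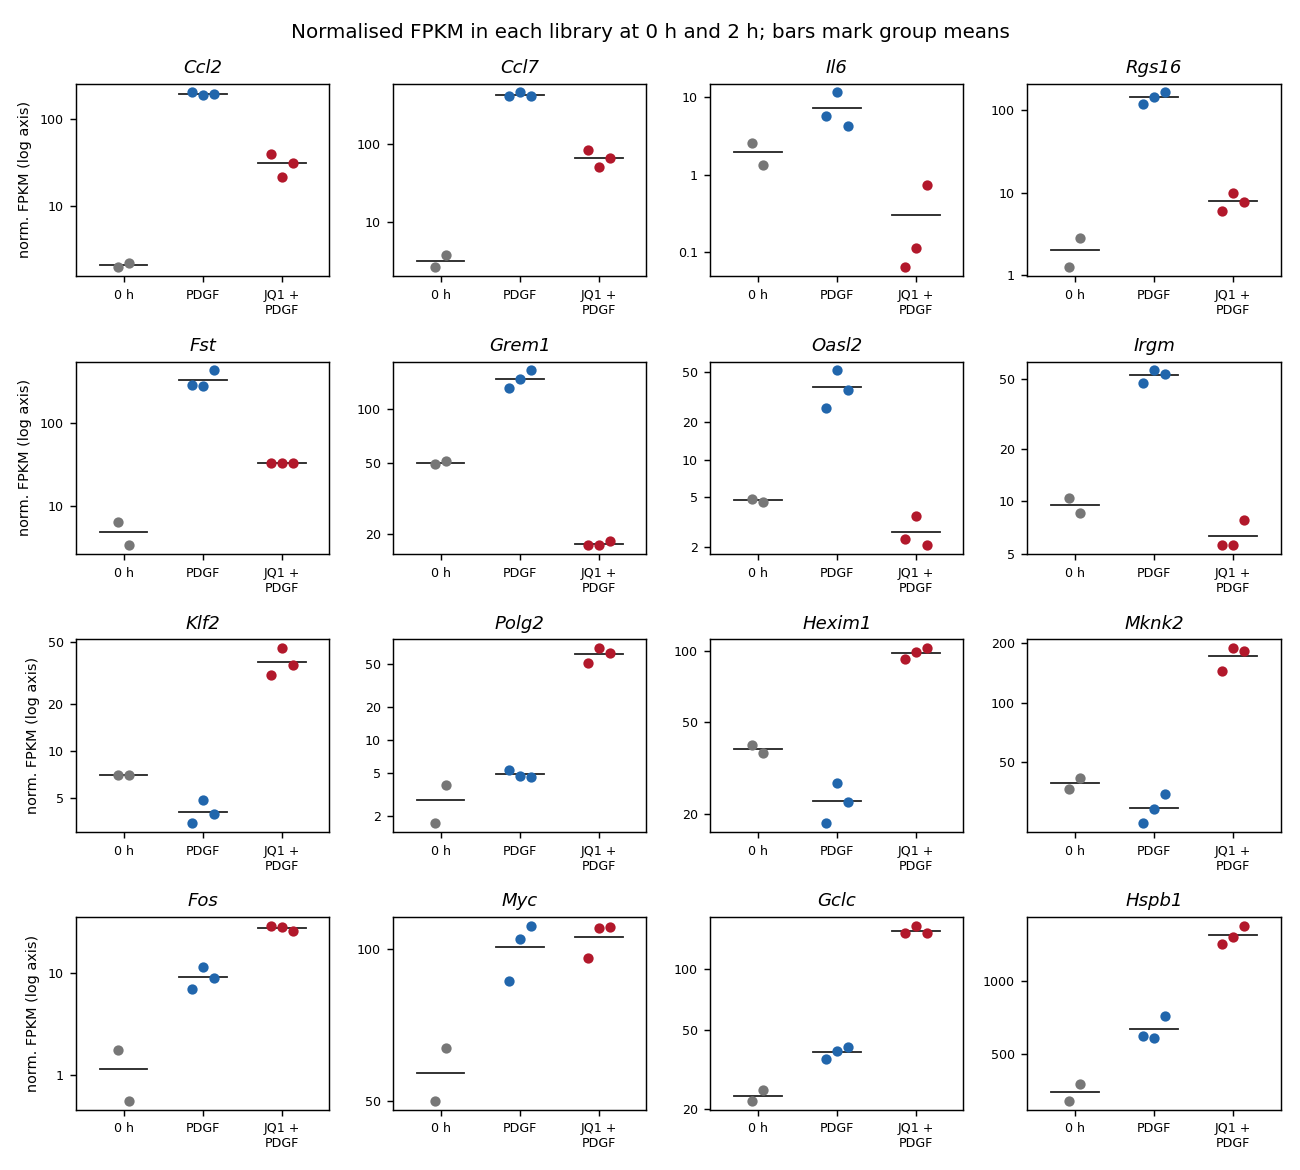
Normalised FPKM (y axis, logarithmic, range set per gene) of 16 genes in each library of the 0 h (grey), PDGF 2 h (blue) and JQ1 plus PDGF 2 h (red) groups, with a bar at the group mean. Ccl2, Ccl7, Rgs16 and Fst with JQ1 lie between 0 h and PDGF, Il6, Grem1, Oasl2 and Irgm lie below 0 h, and Klf2, Polg2, Hexim1 and Mknk2 lie above both other groups. Myc with JQ1 overlaps the PDGF libraries.

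Interferon-response genes formed the list with the largest share of fallen members. Of 19 tested, 17 fell and 0 rose, with a median of -1.36, and 15 fell when centred (median -1.07). These genes are known to be switched on by interferon-activated transcription factors that bind a short promoter element. Promoters from RefSeq (GRCr8, 250 bases before the start) could be matched for 13 of the 19 genes. The interferon-stimulated response element, searched as GAAANNGAAA on both strands, was in 8 of these 13 (61.5%), in 192 of 7735 tested genes with a promoter (2.48%) and in 902 of 27457 promoters in all (3.29%). A match is a description of letters and not evidence of binding. All 8 were called lower on the spike-in scale. Stretches around the match, 5′ to 3′ on the gene's strand and with the match in capitals, are shown for 6 of the 8. They are Irf7 (chr1:205800033-205800142, minus strand), Ifit3 (chr1:241527232-241527325, plus), Ifi44 (chr2:243303841-243303916, minus), Ifih1 (chr3:67683969-67684077, minus), Tap1 (chr20:4668605-4668714, minus) and Gbp2 (chr2:234005646-234005726, plus), all GRCr8.
Irf7: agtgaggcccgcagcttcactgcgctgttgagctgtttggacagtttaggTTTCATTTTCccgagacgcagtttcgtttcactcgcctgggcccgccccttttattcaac
Ifit3: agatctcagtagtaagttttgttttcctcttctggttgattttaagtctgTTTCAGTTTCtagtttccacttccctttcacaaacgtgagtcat
Ifi44: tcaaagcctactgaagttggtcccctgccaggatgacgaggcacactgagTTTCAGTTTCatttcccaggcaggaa
Ifih1: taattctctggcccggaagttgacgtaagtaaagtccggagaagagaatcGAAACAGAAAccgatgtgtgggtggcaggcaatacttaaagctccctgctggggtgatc
Tap1: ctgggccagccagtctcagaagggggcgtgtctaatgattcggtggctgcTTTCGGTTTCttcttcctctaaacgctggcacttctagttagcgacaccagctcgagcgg
Gbp2: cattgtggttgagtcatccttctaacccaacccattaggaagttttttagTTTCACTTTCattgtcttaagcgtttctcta

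In the stretches of Irf7, Ifit3, Ifi44, Tap1 and Gbp2 the capitals are the element read on the opposite strand. Irf7, a master regulator of interferon genes, was at 3.95 and 1.76 before PDGF, 45.5, 60.6 and 46.8 with PDGF and 16.97, 16.3 and 17.5 with JQ1. The JQ1 libraries lay below the PDGF libraries and above 0 h (-1.52 ± 0.22, limma adjusted p = 6.68e-05). Tap1, the peptide transporter of antigen presentation, followed the same order, with 7.29 and 6.74, 59.8, 62.96 and 77.6 and 25.2, 27.6 and 29.4 (-1.25 ± 0.14). Ifih1, an RNA sensor, was at 26.2, 35.5 and 33.1 and 20.6, 17.6 and 16.2 (-0.76 ± 0.17), and Gbp2, a guanylate-binding protein gene, at 26.8, 27.2 and 33.5 and 20.4, 22.7 and 22.2 (-0.40, not called when centred). Ifit3 was at 0.842, 8.16 and 0.595 with PDGF and Ifi44 at 1.07, 5.23 and 1.15, in both cases highest by far in replicate 1. That library was raised by 0.58 (log2) among genes of 1 to 5 FPKM, so the falls of Ifit3 and Ifi44 are uncertain. Beyond the list, the GTPase genes Igtp (29.4, 53.4 and 31.3 with PDGF, 1.66, 2.39 and 3.51 with JQ1, -3.45 ± 0.25) and Irgm (47.8, 56.3 and 53.9, 5.66, 5.61 and 7.84, -2.87 ± 0.20) and the oligoadenylate synthetase genes Oasl2 (26.1, 51.7 and 36.2, 2.35, 3.56 and 2.08, -3.38 ± 0.23) and Oas1b (-3.40 ± 0.30) were among the 20 lowest differences of all. With JQ1, Oasl2 and Irgm lay below both libraries at 0 h. These belong to gene families with related members, among which reads may be split, so single members are uncertain. Isg15, a ubiquitin-like protein gene, went from 21.3, 31.99 and 21.4 to 6.39, 3.01 and 5.70 (-2.12 ± 0.33) and Irf9 from 24.99, 23.2 and 27.3 to 8.72, 9.43 and 9.30 (-1.36 ± 0.13), without overlap. Among all 192 tested genes with the element 95 fell (49.5%) and 8 rose, against 34.7% and 7.36% of the 7735 genes with a promoter. Without the interferon list 87 of 184 fell (47.3%). For AP-1 elements (TGACTCA) 33.8% of 234 genes fell, and for the heat shock element (GAANNTTCNNGAA) 10 of 28.

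Signalling genes of the TGF-beta family included both some of the lowest and some of the highest differences. Of 29 tested TGF-beta, BMP and Notch genes, 4 rose and 15 fell (7 and 10 when centred, median -0.53). Secreted antagonists fell most. Fst, the activin-binding protein follistatin, was at 6.50 and 3.37 before PDGF, 289, 286 and 440.2 with PDGF and 33.6, 33.2 and 33.6 with JQ1, a 10.1-fold lower mean than with PDGF (-3.27 ± 0.25). Grem1, the BMP antagonist gremlin, was at 49.1 and 51.2, 131, 148 and 165 and 17.3, 17.4 and 18.2. For Fst the JQ1 libraries stayed above 0 h, whereas for Grem1 they lay below it (-2.99 ± 0.12). Ligands fell as well: Tgfb3 from 277, 333 and 365 to 95.6, 96.9 and 101 (-1.71 ± 0.12), Inhba, the activin subunit, from 194, 329 and 354 to 96.4, 136 and 127 (-1.25 ± 0.20), Tgfb2 by 1.12 and Bmp4 by 1.24. Smad6, Id1 and Id2 rose. Smad6, the inhibitory Smad of the BMP branch, went from 0.947, 0.618 and 1.12 to 5.63, 8.43 and 11.5, against 11.7 and 17.9 at 0 h (2.29 ± 0.25). Id1 was at 10.9, 3.26 and 17.9 with PDGF and 33.9, 40.5 and 31.5 with JQ1 (1.87 ± 0.38), and Id2 at 3.29, 0.219 and 4.83 and 17.4, 12.999 and 18.3 (2.45 ± 0.47). Id1 and Id2 encode inhibitors of basic helix-loop-helix factors, and for both PDGF replicate 1 was well below its partners, Id2 being listed at 0 there before normalisation. Id3, of the same family, fell from 525, 499.6 and 579 to 270.4, 298 and 311 (-0.86 ± 0.11). The Notch ligand gene Jag1 rose by 0.43 ± 0.14 and Notch1 fell by 0.72.

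Receptors for PDGF were lower in the JQ1 libraries. Pdgfrb, the receptor for PDGF-BB, was at 324 and 383 before PDGF, 189.7, 233 and 253 with PDGF and 127, 125 and 135 with JQ1, each step without overlap (-0.79 ± 0.13 for JQ1, limma adjusted p = 0.000209). Pdgfra went from 3.19, 5.73 and 4.83 to 0.517, 0.91 and 0.897 (-1.63 ± 0.20). Of 27 tested growth factor and receptor genes, 2 rose and 10 fell (5 and 6 when centred, median -0.38). Fgf2 (15.5, 27.2 and 27.8 to 4.96, 5.06 and 6.23, -1.89 ± 0.25) and the ligand gene Pdgfb (40.5, 52.9 and 69.9 to 17.6, 20.6 and 14.3, -1.56 ± 0.21) fell. Vegfa (57.1, 55.4 and 67.5 to 101, 101 and 97.8) and Fgfr1 rose. Hbegf, a ligand of the EGF receptor, was at 53.5 and 55.99 before PDGF, 619, 712 and 812 with PDGF and 689, 739 and 710.4 with JQ1. The last 2 groups overlapped (limma adjusted p = 0.981 on the spike-in scale), though the gene was higher when centred (0.35).

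Receptors and regulators of vessel tone were mostly lower. Of 19 tested vasoactive receptor and Rgs genes, 1 rose and 10 fell (4 and 10 when centred), with a median of -0.84. Rgs16, which speeds the turn-off of G protein signals, had the lowest difference of all tested genes on the spike-in scale. It was at 1.25 and 2.83 before PDGF, 121, 146 and 165 with PDGF and 6.07, 10.1 and 7.77 with JQ1 plus PDGF. JQ1 libraries were far below PDGF and above 0 h, an 18.1-fold lower mean (-4.03 ± 0.24, limma adjusted p = 2.09e-08). Rgs3 went from 32.2, 35.8 and 37.5 to 8.17, 7.34 and 8.53 (-2.003 ± 0.12). Receptor genes for angiotensin (Agtr1a, 23.9, 38.9 and 27.7 to 8.56, 7.38 and 10.4, -1.65 ± 0.21), noradrenaline (Adra1d, -1.79 ± 0.25) and natriuretic peptides (Npr3, 86.9, 116 and 110.0 to 31.7, 35.9 and 33.9, -1.59 ± 0.15) fell without overlap.

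Contractile genes differed by member. Of 30 tested, 2 rose and 13 fell, against 9 and 9 when centred, and the median was -0.39 (-0.069 centred). Acta2, smooth muscle actin and the most abundant of them, was at 5726, 5262 and 7048 with PDGF and 5981, 6326 and 6289 with JQ1, overlapping values (0.055 ± 0.16, limma adjusted p = 0.814), and higher when centred (0.43). Tagln, transgelin, was at 4642, 4103 and 5568 and 6352, 6704 and 6807 with no overlap (0.48 ± 0.15, limma adjusted p = 0.0203), but lost its spike-in call without PDGF replicate 1, JQ1 replicate 1 or JQ1 replicate 2. Cnn1, calponin, did not pass on either scale (-0.38 ± 0.17, limma adjusted p = 0.0896). Fallen genes encode a regulator of the calcium pump (Pln, 6.58, 11.3 and 5.59 to 0.523, 0.885 and 0.465, -2.40 ± 0.29), adhesion and Z-disc proteins (Pgm5, -1.58 ± 0.21; Ldb3, -1.56 ± 0.39) and an inhibitor of myosin phosphatase (Ppp1r14a, -0.97 ± 0.20). Myh11, the smooth muscle myosin heavy chain, was at 3.68, 6.52 and 4.81 with PDGF and 2.09, 3.32 and 2.61 with JQ1 and fell by 0.69, a call lost without PDGF replicates 1 or 2 or JQ1 replicates 0 or 2. Myocd, the coactivator of contractile genes with SRF, went from 3.08, 6.63 and 3.28 to 0.47, 0.768 and 0.419 without overlap (-1.73 ± 0.27, limma adjusted p = 0.000136).

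Of 48 tested genes for transcription factors linked to the state of smooth muscle, 18 fell and 6 rose (13 and 11 when centred, median -0.36). The homeobox gene Prrx1 fell furthest, from 17.9, 27.96 and 28.7 to 2.96, 3.41 and 3.11 against 19.6 and 26.8 at 0 h (-2.61 ± 0.17). Sox9, a cartilage regulator, was at 12.6 and 11.96 before PDGF, 126, 144 and 156 with PDGF and 58.9, 58.6 and 65.2 with JQ1, so that the JQ1 libraries lay between the others (-1.20 ± 0.14). Runx1 fell by 1.01, Twist2 by 1.39 and Zeb1 by 1.15, each without overlap. Etv5, an ETS factor, rose from 6.13, 8.28 and 8.23 to 24.1, 30.5 and 27.2 (1.73 ± 0.16), Sox4 by 0.84 ± 0.17 and Klf15 by 1.10 ± 0.23. Klf15 was at 15.8 and 12.002 at 0 h, 0.412, 0.406 and 0.349 with PDGF and 1.52, 2.68 and 1.83 with JQ1. Srf, the partner of Myocd, did not pass (-0.20 ± 0.14, limma adjusted p = 0.278).

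Tnc, Thbs1, Postn and 3 lysyl oxidase genes fell, while fibronectin and 6 of 7 tested collagen genes did not pass on the spike-in scale. Of 26 tested matrix genes, 0 rose and 10 fell, against 8 and 7 when centred, and the median was -0.28. Tnc, tenascin C, was at 11.9 and 14.7 before PDGF, 224, 284 and 347 with PDGF and 51.3, 67.4 and 61.8 with JQ1 (-2.21 ± 0.17, limma adjusted p = 1.89e-07). Thbs1, thrombospondin 1, was at 309 and 367, 2885, 3505 and 5039 and 1845, 2409 and 2232 (-0.79 ± 0.19). In both the JQ1 libraries lay between the other groups without overlap. Postn went from 477, 514 and 604 to 258, 210.2 and 253 (-1.14 ± 0.11), close to its 0 h values of 249 and 266. The lysyl oxidase genes Loxl3, Lox and Loxl1 fell by 1.07, 0.62 and 0.56, and Lox did not pass when centred. Col1a1, a fibrillar collagen, was at 2118, 2125 and 3061 and 2364, 2563 and 2682, overlapping, and higher only when centred (0.46). Proteases and their inhibitors differed by member: of 17, 3 rose and 8 fell (4 and 6 when centred, median -0.41). Plat, tissue plasminogen activator, rose from 316, 363 and 359.6 to 580.1, 573 and 573 (0.73 ± 0.12), and Plaur, the urokinase receptor, fell by 0.89. The metalloproteinase inhibitors Timp1 (592, 646 and 748 to 1320.5, 1522 and 1566, 1.15 ± 0.12) and Timp3 (1.09 ± 0.15) rose, while Mmp14 fell by 1.09 and the protease gene Adamts1 by 1.26. None of these 6 had overlapping groups.

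Genes of biosynthesis differed by list, to be read against the 34% of all tested genes that fell on the spike-in scale. Of 27 ribosome biogenesis genes, 16 fell and 0 rose, against 9 and 2 when centred, with a median of -0.41. The fallen included Ltv1, a factor of small subunit assembly (22.1, 22.7 and 27.6 to 6.33, 6.04 and 6.84, -1.76 ± 0.14), and the RNA methyltransferase gene Nop2 (-1.31 ± 0.16). Of 76 genes for proteins of the ribosome itself, 5 fell and 0 rose, with a median of -0.21 (12 higher and 1 lower when centred). That is a smaller share of fallen genes than among all tested genes. Of 26 genes of the amino acid and ER stress response, 14 fell and 2 rose (12 and 4 when centred, median -0.42). Trib3, a pseudokinase induced by Atf4, went from 35.5, 36.7 and 38.9 to 11.2, 4.88 and 6.37 (-2.23 ± 0.23), and Phgdh, the first enzyme of serine synthesis, from 130.3, 144 and 153 to 48.3, 36.02 and 50.4 (-1.66 ± 0.13). The asparagine synthetase gene Asns fell by 1.05 and the transporter gene Slc7a11 by 1.16, whereas Ddit3, which encodes CHOP, rose from 51.97, 59.2 and 58.4 to 101, 103 and 96.5 (0.82 ± 0.10). Of 23 cholesterol synthesis genes, 12 fell and 2 rose (9 and 2 when centred, median -0.46). Fdft1, squalene synthase, went from 32.2, 50.3 and 44.9 to 14.01, 15.97 and 16.1 (-1.39 ± 0.16), and Cyp51 from 229, 236 and 243 to 104, 109 and 109 (-1.13 ± 0.10). Insig1, which retains the sterol sensor in the ER, rose by 0.82 ± 0.14. In glycolysis 2 of 20 genes rose and 5 fell (6 and 1 when centred, median -0.22). Hk2, hexokinase 2, was at 11.6 and 12.2 before PDGF, 161, 184 and 193 with PDGF and 87.5, 93.1 and 90.1 with JQ1 (-0.98 ± 0.15), while the glucose transporter gene Slc2a1 rose by 0.59 ± 0.15. Of 73 oxidative phosphorylation genes, 22 fell and 0 rose (10 and 8 when centred), with a median of -0.28 against -0.29 for all genes. Gapdh, often used as a reference, was at 559, 541 and 753 and 668, 719 and 777, overlapping (0.24 ± 0.16, limma adjusted p = 0.256), and higher when centred (0.59).

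Chaperone and antioxidant genes included clear rises. Of 11 heat shock genes, 6 rose and 2 fell, with a median of 0.84, and when centred 6 rose and 0 fell. Hspb1, the small heat shock protein Hsp27, was at 318 and 372 before PDGF, 594, 582 and 716 with PDGF and 1432, 1519.9 and 1696 with JQ1. All JQ1 libraries lay above all others (1.30 ± 0.14, limma adjusted p = 4.79e-06). The co-chaperone genes Bag3 (126, 158 and 174 to 394, 466 and 481, 1.55 ± 0.14) and Dnajb1 (44.9, 54.3 and 67.6 to 113, 136 and 133, 1.20 ± 0.14) rose likewise. Hspa1a and Hspa1b encode near-identical Hsp70 proteins, so their values are uncertain. Hspa1b was at 3.65, 24.6 and 3.86 and 11.2, 96.4 and 99.4, overlapping through JQ1 replicate 0, and its call was lost without PDGF replicates 0 or 2 or JQ1 replicates 1 or 2. The mitochondrial chaperonin gene Hspd1 and the regulator Hsf1 fell by 0.50 and 0.51 on the spike-in scale only. Gclc, the rate-limiting enzyme of glutathione synthesis, was at 21.96 and 24.8 before PDGF, 35.7, 39.2 and 40.7 with PDGF and 152, 165 and 152 with JQ1, a 4.05-fold higher mean (1.99 ± 0.13). Srxn1, sulfiredoxin, went from 335, 388 and 420.3 to 741, 819 and 843 (1.07 ± 0.14) and Txnrd1 rose by 0.68 ± 0.12, but Hmox1, haem oxygenase, fell from 246, 238 and 247 to 138, 118 and 137 (-0.90 ± 0.10), and Nqo1 did not pass. In all, 4 of 13 Nrf2 and metal response genes rose and 3 fell (5 and 2 when centred, median 0.027).

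Regulators of survival moved in opposite directions. Bcl2l11, which encodes the pro-death protein Bim, went from 7.69, 3.93 and 9.10 to 29.6, 33.3 and 46.1 (2.28 ± 0.36), and Bcl2l1, which encodes the survival protein Bcl-xL, from 55.1, 61.8 and 72.5 to 7.33, 18.5 and 22.6 (-2.03 ± 0.26), both without overlap. Bbc3, the pro-death gene Puma, fell by 1.03, and Mcl1, a survival gene, rose by 0.42 ± 0.13. Cdkn1a, which encodes the CDK inhibitor p21, rose from 219, 193 and 279.7 to 325, 375 and 361 (0.63 ± 0.13). Of 17 genes of growth arrest and cell death 5 rose and 7 fell (6 and 5 when centred, median -0.39). Txnip, an inhibitor of thioredoxin and of glucose uptake, was at 60.4 and 72.3 before PDGF, 2.37, 3.99 and 3.09 with PDGF and 8.59, 7.60 and 7.32 with JQ1, so that the JQ1 libraries were above PDGF and far below 0 h (1.11 ± 0.16). Of 16 arrestin-domain and clock genes including Txnip, 2 rose and 5 fell (5 and 4 when centred, median -0.28). The arrestin-domain genes Arrdc3 (-1.83 ± 0.22) and Arrdc2 (1.36 ± 0.22) stood on opposite sides, and the clock gene Per2 fell (-1.001).

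Many histone transcripts were higher, a group usually scarce in polyadenylated RNA because most replication-dependent histone mRNAs lack a tail. Of 25 tested, 11 rose and 2 fell, with a median of 0.83. On the centred scale, where 26 were tested, 12 rose and 1 fell. Hist1h2bh was at 71.97, 105 and 101 with PDGF and 306, 339.6 and 374 with JQ1 (1.88 ± 0.15), Hist3h2a at 6.84, 10.03 and 7.69 and 36.5, 35.7 and 42.5 (2.11 ± 0.16), and Hist1h4b at 7.87, 3.57 and 7.42 and 31.9, 42.7 and 29.04 (2.33 ± 0.26). Variants made throughout the cycle rose too, among them H2afx, whose phosphorylated protein marks DNA damage (47.9, 50.7 and 65.2 to 191, 215 and 247, 1.98 ± 0.17), and H3f3b, which encodes H3.3 (439.7, 423 and 452 to 1245, 1174 and 1173, 1.45 ± 0.11). None of these 5 overlapped. H2afy2, a macroH2A gene, went the other way (5.52, 10.7 and 5.68 to 0.888, 0.742 and 0.671, -2.18 ± 0.23). Histone genes are near-identical copies, and reads may be shared among them.

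Cell cycle genes were lower or not called in most cases. Of 31 G1/S and replication genes, 17 fell and 2 rose, and of 26 G2/M genes, 15 fell and 0 rose. When centred the numbers were 12 and 2, and 11 and 0. The medians were -0.58 and -0.66. Ccnd1, cyclin D1, was at 83.5 and 91.02 before PDGF, 77.8, 78.2 and 98.6 with PDGF and 40.9, 41.5 and 43.1 with JQ1. The JQ1 libraries were lowest, with no overlap (-0.995 ± 0.12, limma adjusted p = 1.19e-05). Its partner kinase genes Cdk4 (181, 210.4 and 199.9 to 109, 108 and 118, -0.81 ± 0.11) and Cdk6 (9.02, 23.8 and 17.05 to 2.18, 2.46 and 4.59, -2.06 ± 0.28) fell as well. All 6 subunit genes Mcm2 to Mcm7 of the replicative helicase fell, from -0.78 for Mcm4 to -1.56 for Mcm3. Pcna, the sliding clamp, rose from 135, 117 and 123 to 166, 181 and 170.5 (0.46 ± 0.10). In mitosis Plk1 went from 11.95, 11.5 and 11.2 to 2.76, 4.19 and 4.41 (-1.41 ± 0.19) and Cdc20 from 24.8, 29.6 and 31.9 to 8.65, 6.04 and 11.99 (-1.63 ± 0.21).

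Outside the lists, the highest difference of a named gene called on both scales, microRNA loci apart, was that of Polg2, the accessory subunit of mitochondrial DNA polymerase. It was at 1.72 and 3.86 before PDGF, 5.27, 4.65 and 4.62 with PDGF and 50.9, 70.2 and 63.1 with JQ1, a 12.7-fold higher mean (3.41 ± 0.24, limma adjusted p = 1.03e-07). In the GRCr8 table Ddx5, an abundant RNA helicase gene that also rose (662 ± 76.8 to 1064 ± 61.1, mean ± SD, n = 3 each, 0.69 ± 0.13), lies within 2 kb of Polg2. Whether reads of one were counted for the other was not tested. Mknk2, a kinase that phosphorylates the translation factor eIF4E, went from 24.7, 29.1 and 34.6 to 145, 188 and 182 (2.51 ± 0.15). Serpinb2, a plasminogen activator inhibitor, rose from 8.50, 5.85 and 12.05 to 52.9, 63.2 and 57.1 (2.63 ± 0.23). Cirbp, a cold-inducible RNA-binding protein gene, was at 30.6 and 27.7 before PDGF, 5.88, 0.712 and 4.43 with PDGF and 28.4, 15.4 and 24.1 with JQ1 (2.52 ± 0.37), so the JQ1 libraries lay near or below 0 h. The transporter gene Cnnm4 (2.41 ± 0.26), Depdc7 (2.34 ± 0.25), Klhl40 (1.96 ± 0.18), Fam43a (1.96 ± 0.19) and Fam222a (2.15 ± 0.28) were also among the 20 highest. Fam222a was listed at 0.19, 0.0669 and 0 unnormalised FPKM with PDGF and 7.44, 3.22 and 6.79 with JQ1. Hist1h2ail1, also of the 20, lost its call without JQ1 replicate 1.

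Among the 20 genes with the lowest differences were 2 ion channel genes, Kcnn4 and Ano1. Kcnn4, a calcium-activated potassium channel of proliferating smooth muscle, was at 7.91 and 7.23 before PDGF, 123, 116 and 166 with PDGF and 12.6, 6.38 and 11.8 with JQ1. The JQ1 libraries lay in the range around 0 h and far below PDGF, a 13.1-fold lower mean (-3.62 ± 0.20). Ano1, a calcium-activated chloride channel, was at 5.24 and 5.89, 26.6, 29.6 and 39.8 and 2.27, 2.05 and 2.13, below 0 h in every JQ1 library (-3.37 ± 0.16). Esm1, a secreted proteoglycan gene, fell from 79.8, 82.01 and 92.4 to 10.6, 6.56 and 10.8 (-3.08 ± 0.17), the CCN family gene Wisp2 from 100.1, 116 and 122 to 13.6, 12.2 and 13.6 (-3.01 ± 0.17) and the metalloprotease gene Adam19 from 23.7, 30.2 and 33.1 to 2.45, 3.59 and 3.42 (-2.85 ± 0.18). The tyrosine kinase gene Src went from 27.7, 32.5 and 36.8 to 3.16, 2.95 and 5.11 (-2.83 ± 0.18), the adhesion adaptor gene Sorbs2 from 33.3, 42.5 and 44.002 to 5.05, 5.30 and 4.12 (-2.81 ± 0.15), Sbno2 fell by 2.73, Cd180, a Toll-like receptor relative, by 2.71, and Calhm2 by 2.74. Zfp260 (6.54, 25.8 and 8.54 to 1.99, 0.121 and 0.0813) lost its call without PDGF replicate 1, which held the highest value, and 2 of its JQ1 libraries are listed at 0 before normalisation. Among 143 Zfp genes as a family, 8 rose and 36 fell (18 and 24 when centred, median -0.37).

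Different libraries give the JQ1 difference at 24 h. There 467 genes were higher (4.61%) and 2576 lower (25.4%) on both scales. Of the 676 genes higher at 2 h on both scales without overlap, 175 (25.9%) were also higher at 24 h, which is 37.5% of the 24 h list, and 29 (4.29%) were lower. Of the 1992 lower genes, 1116 (56.0%) were lower at 24 h (43.3% of that list) and 28 (1.41%) were higher. In the fit on the spike-in scale 2259 genes (22.3%) had a 24 h difference unlike that at 2 h. Hexim1 was higher at both times (2.08 at 2 h and 1.52 at 24 h), and so were Mknk2 (2.51 and 1.90) and Gclc (1.99 and 2.12). Rgs16 (-4.03 and -3.24), Kcnn4 (-3.62 and -3.74), Grem1 (-2.99 and -3.13) and Il6 (-2.57 and -2.51) were lower at both. The change between the times did not pass on either scale for Gclc, Kcnn4, Grem1 and Il6 (limma adjusted p = 0.671, 0.821, 0.588 and 0.945 on the spike-in scale). It passed on 1 scale only for Hexim1 (limma adjusted p = 0.0425 on the spike-in scale), Mknk2 and Rgs16. Of 30 tested contractile genes, 18 had a 24 h difference unlike that at 2 h on both scales. The share of all tested genes on both scales was not counted and can be at most the 22.3% of the spike-in scale. Among them Acta2, at 0.055 at 2 h, was at -3.43 at 24 h, a change of -3.49 (limma adjusted p = 6.58e-08), Tagln went from 0.48 to -1.52 (adjusted p = 1.09e-05) and Cnn1 from -0.38 to -2.62 (adjusted p = 1.05e-05).

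**Figure D5:**
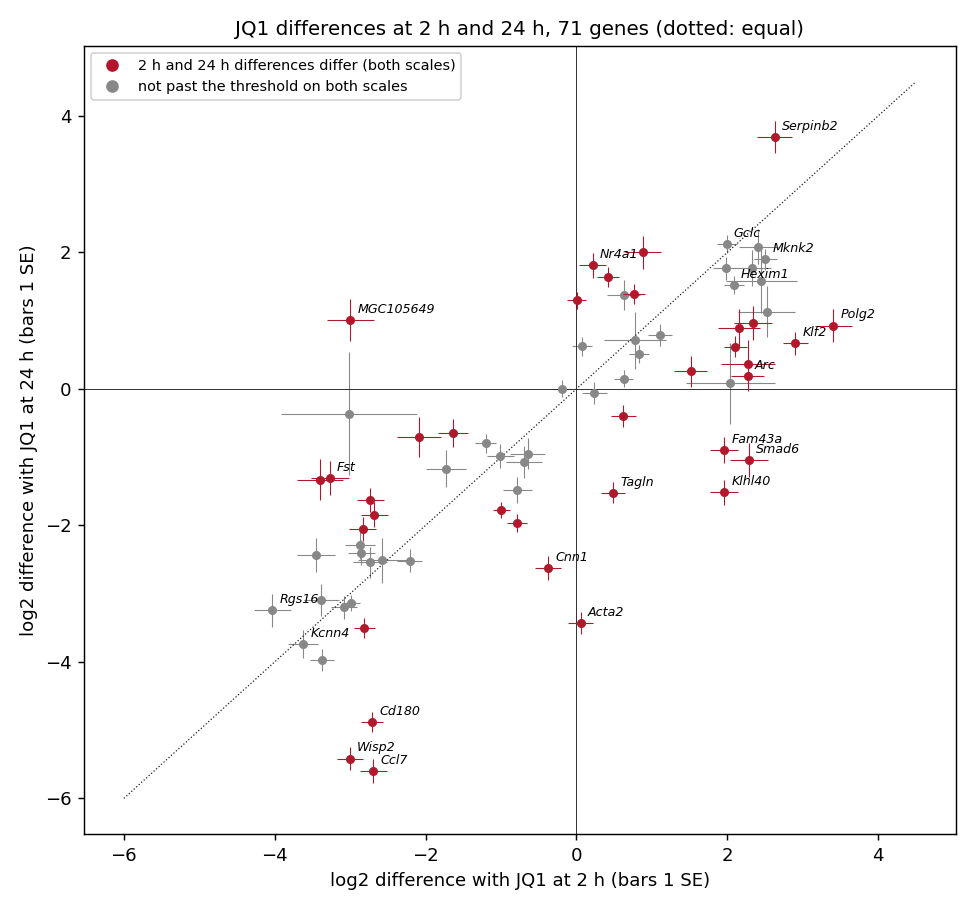
Log2 difference with JQ1 at 2 h (x axis) and at 24 h (y axis) of 71 genes, the 20 highest, the 20 lowest and genes fixed by name, with bars of 1 SE and a dotted line where both are equal. Red points, 35 genes, had a 24 h difference unlike that at 2 h on both scales, for example Acta2 at 0.055 and -3.43. The highest and lowest genes were picked by their 2 h differences. Rgs16, Kcnn4, Hexim1 and Gclc lie near the line.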

How the data were processed

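Polyadenylated RNA was sequenced from stranded libraries as 40-base single reads with ERCC spike-ins, per the labels' protocols. The submitters' processing notes name HISAT (version not given), Cufflinks 2.0.0 and rn6. The sources used here give neither the annotation nor the strand setting. The authors deposited FPKM per gene, unnormalised and normalised; how the second was made is not stated. An unnormalised FPKM of 0 is a small positive value in the normalised table. From the deposited normalised FPKM, genes at 1 or more in at least 2 libraries were kept, and limma 3.58.1 (R 4.3.3) was fitted to log2(FPKM + 1) over 5 groups with 9 residual degrees of freedom and Benjamini-Hochberg adjustment. This understates changes of low genes. Columns map to groups, not to single samples. The second scale divides unnormalised FPKM by median-ratio size factors. Named genes were the 20 highest and 20 lowest called on both scales without overlap (microRNA loci, Rn28s and LOC or RGD symbols left out), up to 4 members per list and 35 fixed genes. A few others are named from the lists, chosen after their values were seen. Some of these genes are not reported here. Members and lists were chosen with earlier results of these data known. Alternatives covered the scale, pseudocounts of 0.1 and 5, filters, library weights, the trend, the samples fitted and each library left out. The fit was tested on simulated data. Promoters came from RefSeq (GRCr8) and were matched for 7735 of 10133 genes.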

Additional observations from a re-analysis of the deposited data

Results flagged for a closer look

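Of 71 genes examined, the 20 highest, the 20 lowest and others fixed by name, 35 had a JQ1 difference at 24 h unlike that at 2 h on both scales (limma interaction, Benjamini-Hochberg adjusted p under 0.05). The values here are the log2 difference at 24 h minus that at 2 h, on the spike-in scale. The 2 times share no library. The highest and lowest genes were picked by their 2 h differences, which also enter this contrast. For them a difference nearer to 0 at 24 h is therefore favoured in advance, and the count of 35 is no measure of genes at large. Of all tested genes 22.3% passed on the spike-in scale, and the share on both scales was not counted. Differences below 0 at both times and nearer to 0 at 24 h belonged to these genes: Oas1b 2.07, Fst 1.96, Src 0.77, Sbno2 1.11, Ccl2 0.84, Lif 1.38, Ptgs2 0.99. Differences below 0 at both times and further from 0 at 24 h were those of Wisp2 -2.41, Sorbs2 -0.70, Cd180 -2.17, Ccl7 -2.91, Cnn1 -2.24, Ccnd1 -0.78, Pdgfrb -1.18. Below 0 at 2 h and above 0 at 24 h stood MGC105649 4.0003. Above 0 at 2 h and below 0 at 24 h stood Smad6 -3.33, Klhl40 -3.47, Fam43a -2.85, Brd3 -1.02, Acta2 -3.49, Tagln -2.01. Genes above 0 at both times with a smaller difference at 24 h were Polg2 -2.48, Klf2 -2.23, Depdc7 -1.37, Bcl2l11 -1.91, Arc -2.09, Fam222a -1.26, Hist3h2a -1.49, Fos -1.26. Above 0 at both times with a larger difference at 24 h were Serpinb2 1.06, Brd2 1.12, Egr1 1.22, Nr4a1 1.59, Klf4 0.62, Hbegf 1.29. A sign here is that of the fitted value, which did not pass on its own in every gene.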

How the results depend on the processing

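The split of calls depended on the scale. On the median-centred scale 2003 genes were higher and 2143 lower, on the unnormalised values 1986 and 2152, and with PDGF replicate 1 and JQ1 replicate 0 also left out, an alternative chosen after seeing the data, 1871 and 2025. Higher genes made up 17.5% of calls on the spike-in scale and 48.3% when centred. Rpl11 (-0.35) changed sign in these settings, to 0.0045, 0.0024 and 0.031, and the cause was not tested. The median of all tested genes moved as well, from -0.29 on the spike-in scale to 0.00 when centred. Leaving out single libraries, or that pair, gave 537 to 753 higher and 2549 to 3886 lower genes. Fitting only the 6 libraries gave 490 and 2527. Of 159 named genes that were called, 137 kept their call in every setting in which they were tested (16 or 17 of the 17) and 22 lost it in at least 1. Many of them were picked for large differences already called, so a kept call was favoured in advance. Of all called genes, 733 of 734 higher and 2128 of 3449 lower were called the same way when centred. With only the 6 libraries fitted these numbers were 483 and 2521. No paired analysis was possible because the columns carry digits that match no letter of the titles and the 2 groups share no letter. Depth in reads is unknown from FPKM, so no counting error can be given, and genes near 0 FPKM are the least certain.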

Other observations

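Of 44 tested microRNA loci, 4 were higher and 1 lower on the spike-in scale, against 7.24% and 34% of all tested genes. Mir212 was listed at 0 in all 3 PDGF libraries before normalisation and at 36.8, 272 and 23.9 normalised FPKM with JQ1 plus PDGF. A gene this short has a high FPKM from few fragments, and no fold is given against a group listed at 0. Genes between 20 and 100 FPKM on average were called lower in 44.6% of cases and those under 5 FPKM in 19.5% on the spike-in scale, against 25.9% and 16.7% when centred. The median differences of these groups on the spike-in scale lay closer together, at -0.33 and -0.27. At 100 FPKM and over, 37.8% were called lower on that scale.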
